A study of Equus caballus with 4 samples.

Results

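The genes of major histocompatibility complex (MHC) class I peptide loading and of the immunoproteasome were followed in differentiating equine satellite cells (ESC) with and without *β*-hydroxy-*β*-methylbutyrate (HMB). The set of 10 genes is *B2M*, *TAP1*, *TAP2*, *TAPBP*, *PSMB8*, *PSMB9*, *PSMB10*, *NLRC5*, *ERAP1* and *PDIA3*, and a probe was taken when the name of its gene in the array files was a name of the set. Probes were found for 9 of the 10, 21 probes in all, among 24993 genes or unnamed transcripts on the array. No probe carried the name *NLRC5*. The cells came from the semitendinosus muscle of 6-month-old colts, were preplated against fibroblasts and had differentiated for 2 days before HMB was added for 24 h, so that both groups were on differentiation day 3. Control cells received the differentiation medium alone. The methods give the dose of HMB as 50 µM and the sample labels as 50 µg, and the description field of the labels calls the cells GO-treated, whereas the titles say HMB, as used here. Each of the 4 two-colour arrays held RNA of HMB-treated cells in Cy5 and of control cells in Cy3 (*n* 4, 1 slide). The dyes were not exchanged, so a preference of a probe for a dye cannot be told apart from HMB. Wells of both groups were seeded from the same flasks, but which colt is on which array is not stated.

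Nearly every nucleated cell shows fragments of its own proteins on MHC class I molecules. Proteasomes cut the proteins, the TAP transporter carries the peptides into the endoplasmic reticulum, an aminopeptidase trims them, and a loading complex places them on a heavy chain paired with β2-microglobulin. Interferons replace the catalytic subunits of the constitutive proteasome by those of the immunoproteasome and raise most genes of this route, and muscle fibres at rest show little class I.

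In HMB-treated cells, mRNA was lower for a pair of immunoproteasome subunits, for a subunit of the peptide transporter, for the trimming enzyme and most of all for β2-microglobulin. Past the threshold (adjusted P at most 0.05) were 5 of the 9 measured genes, all 5 lower with HMB: *B2M*, *PSMB8*, *PSMB9*, *TAP1* and *ERAP1*. Of all 15615 genes tested, 22.4% were past the threshold in either direction and 11.6% were past it and lower, and of all 27384 probes tested 22.8% were past it. The median of the 9 genes was −0.45 on the log2 scale, beside 0.02 over all genes. With normexp background correction it was −0.34 with loess and −0.26 with median centring, so its size depended on the processing. All genes stood at 0.13 in the latter setting. The log2 ratio is the level in HMB-treated over that in control cells, so that −1 is a fall to 50.0% of the control level, and means are given ± SD over the 4 arrays. In these cultures, fewer cells of a type and less RNA per cell cannot be told apart. By array, the median of the 9 genes was −0.09, −0.45, −0.73 and −0.61 on arrays 1 to 4. Arrays 3 and 4 therefore held the lower values, and the highest ratio of a gene on any array was that of *PDIA3* on array 3.

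**Figure D1:**
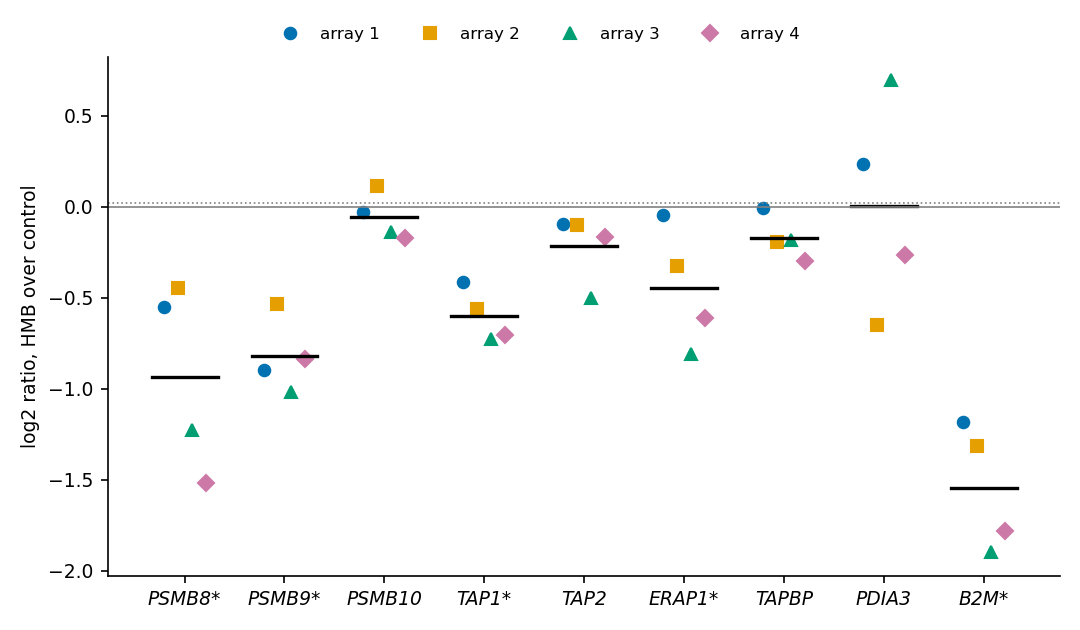
Log2 ratio of HMB-treated over control cells for the 9 genes on each array (symbols) with the mean (bar). An asterisk marks an adjusted P of at most 0.05; the dotted line is the median of all genes tested.

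The plot of the 9 genes by array shows *B2M* lowest, with all 4 arrays under −1, and *PDIA3* spread on both sides of 0. For *PSMB8*, *TAP1*, *ERAP1* and *B2M* the values of arrays 1 and 2 all lie above those of arrays 3 and 4.

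The immunoproteasome carries 3 catalytic subunits of its own, and these are *PSMB8* (β5i, chymotrypsin-like), *PSMB9* (β1i) and *PSMB10* (β2i, trypsin-like). The bases below are what the array measured of each, 5′ to 3′, shown because their ratios part: a single probe for *PSMB8* (chr20:26852202-26852418, minus strand, EquCab1, over a splice junction), a single probe for *PSMB10* (chr3:18195257-18195443, minus strand, also over a junction), and the first 30 bases of the brightest of the 5 probes of *PSMB9* (chr20:26867606-26867665, plus strand), with the bases that all 5 probes hold in capitals.
PSMB8: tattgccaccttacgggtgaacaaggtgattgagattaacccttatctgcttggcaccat
PSMB9: aatgAGCTGCCGAAATTCTATGATGAGTGA
PSMB10: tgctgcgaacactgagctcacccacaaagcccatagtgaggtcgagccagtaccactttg

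The log2 ratios of *PSMB8* were −0.55, −0.45, −1.23 and −1.52 on arrays 1 to 4. All 4 were below 0, and arrays 3 and 4 lay well under the other pair. The mean was −0.94 ± 0.52, or 52.3% of the control level (adjusted P = 0.0184). Without array 3 the mean was −0.84 and the adjusted P 0.0683, so the call for *PSMB8* depended on that array. It was also lost with separate channels (adjusted P = 0.0800), with no filter on dim probes (0.104) and by a one-sample test of each probe alone (0.141); over all alternatives its adjusted P ran from 0.0119 to 0.141. With normexp background correction the mean was −0.64 with loess and −0.60 with median centring, so its size depended on the processing.

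For *PSMB9* the ratios were −0.89, −0.54, −1.02 and −0.83, with array 2 nearest to 0. Its mean of −0.82 ± 0.20 is 56.6% of the control level (adjusted P = 0.00342). Its 5 probes are each shifted by 1 base and share 56 bases, so they repeat a single measurement; their means ran from −0.82 to −0.77. *PSMB10* had ratios of −0.03, 0.11, −0.14 and −0.17, on both sides of 0, with a mean of −0.06 ± 0.13 (adjusted P = 0.599). With ratios centred on the array median and no loess, its mean was 0.14, close to the 0.13 of all genes in that setting.

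Each of these subunits takes the place of a constitutive one in the 20S core particle, and the ratios of a pair on the same array were set against each other. *PSMB8* less *PSMB5* gave −0.67, −0.44, −1.30 and −1.45 in the order of the arrays, on average −0.97 ± 0.49. *PSMB9* less *PSMB6* gave −0.73, −0.40, −0.77 and −0.68, on average −0.64 ± 0.17. The replaced subunit was thus the higher of the pair on all 4 arrays in both. *PSMB10* less *PSMB7* gave 0.04, 0.13, −0.03 and −0.14, on both sides of 0. An exact sign-flip permutation test over the arrays gave P = 0.125 for the first and second pair and 1 for the third, adjusted P = 0.188, 0.188 and 1 over the 3 pairs; 0.125 is the smallest that 4 arrays can give, so this test could not have reached the threshold.

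**Figure D2:**
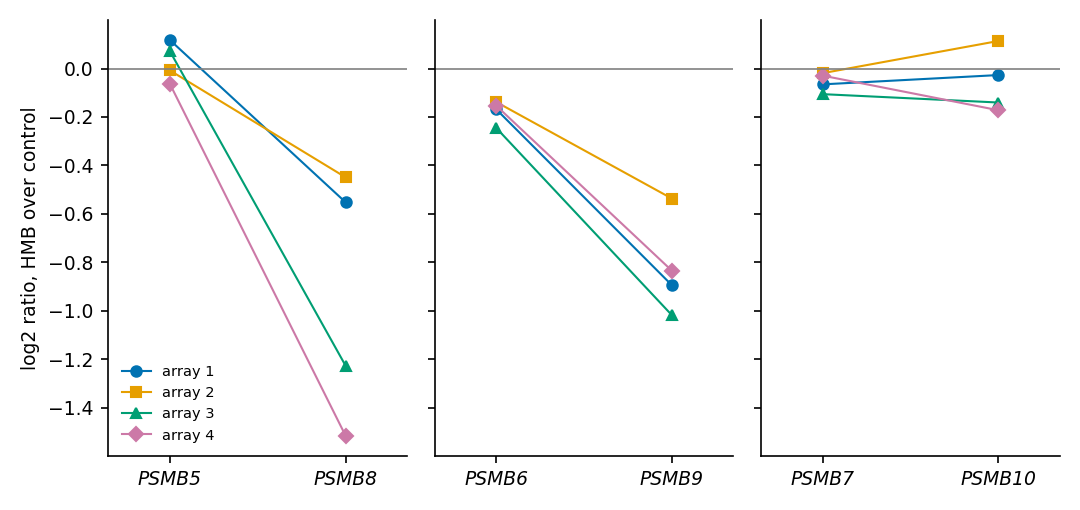
Log2 ratio of each constitutive catalytic subunit (left of a panel) and of the immunoproteasome subunit that replaces it (right), joined within an array.

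In the panels of paired subunits the lines of *PSMB5* to *PSMB8* and of *PSMB6* to *PSMB9* descend on every array, and those of *PSMB7* to *PSMB10* stay level or cross. Of the 14 constitutive core particle genes, 0 were past the threshold by limma (1 at an unadjusted P under 0.05) and 0 by a one-sample test of each probe alone, and their means ran from −0.30 to 0.03. Over all genes 22.4% were past the threshold by limma, and 37.9% had an unadjusted P under 0.05. By the test of each probe alone, 411 of all 15615 genes were past the threshold. The median of the 14 was −0.07, under the median of all genes, but 0.30, above it, with median centring and no loess. At the brightest of them, *PSMA7*, *PSMB6*, *PSMB2* and *PSMA6*, the means were −0.12, −0.18, −0.03 and −0.08.

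The peptide transporter is a dimer of *TAP1* and *TAP2*, which use ATP to move peptides across the membrane of the endoplasmic reticulum. The *TAP1* probe (chr20:26856595-26856654, minus strand) is shown whole. Of the 5 *TAP2* probes, again shifted by 1 base each, the first 30 bases of the brightest (chr20:26838355-26838414, minus strand) are shown, with the bases common to all 5 in capitals.
TAP1: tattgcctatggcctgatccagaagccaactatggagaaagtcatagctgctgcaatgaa
TAP2: gtgtCCATGAATCTTATTTCCTTGATGAAC

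*TAP1* had ratios of −0.41, −0.56, −0.73 and −0.70 on arrays 1 to 4. They were below 0 throughout and the closest together of the 5 lower genes (SD 0.15). The mean of −0.60 is 65.9% of the control level (adjusted P = 0.00480). *TAP2* had −0.09, −0.10, −0.50 and −0.17, all below 0 but with array 3 apart from the rest, and a mean of −0.22 ± 0.19 (adjusted P = 0.122). Its 5 probes gave means of −0.23 to −0.19 and adjusted P of 0.101 to 0.167. The mean of *TAP2* was 0.09 with median centring and no loess, still under the 0.13 of all genes. Whether the subunits of the transporter differed from each other was not tested.

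*ERAP1* trims the N-terminal end of peptides in the endoplasmic reticulum. A pair of its probes lies end to end, and the one bright enough to be tested (chr14:71323974-71324033, plus strand) reads as follows.
ERAP1: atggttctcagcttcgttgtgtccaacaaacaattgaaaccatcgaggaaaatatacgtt

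The ratios of *ERAP1* were −0.05, −0.33, −0.81 and −0.61, so that array 1 showed nearly no difference. The mean was −0.45 ± 0.33, 73.2% of the control level, just inside the threshold (adjusted P = 0.0491). Without array 2, 3 or 4 the adjusted P was 0.106, 0.157 and 0.128, and with normexp background correction and loess it was 0.0503, in a range of 0.0312 to 0.199 over all alternatives. Its mean was −0.34 with normexp and loess and −0.26 with normexp and median centring, so the size also depended on the processing. The call for *ERAP1* held in 6 of 14 alternatives, the fewest of the 5 lower genes. The adjacent dim probe, which did not pass the filter, had −0.27, −0.18, −0.69 and −0.27.

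In the loading complex, *TAPBP* (tapasin) bridges the transporter and the empty class I molecule, and *PDIA3* (ERp57) is the disulphide isomerase bound to tapasin. *TAPBP* had ratios of −0.01, −0.19, −0.18 and −0.30, with a mean of −0.17 ± 0.12 (adjusted P = 0.128). Those of *PDIA3* were 0.23, −0.65, 0.69 and −0.27. It lay above 0 on arrays 1 and 3 and below on arrays 2 and 4, the widest spread of the 9 genes, with a mean of 0.00 ± 0.59 (adjusted P = 0.995). With median centring and no loess the mean of *TAPBP* was −0.05 and that of *PDIA3* 0.35, beside 0.13 of all genes. Neither gene was past the threshold there.

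*B2M* encodes β2-microglobulin, the light chain of every class I molecule. It had 4 probes, and from the brightest (chr1:141769604-141770643, minus strand, over an intron) bases 6 to 35 are shown, with those shared with the overlapping probe in capitals.
B2M: ctctaaccagcatcaTGAAGGCTTGAAGAT

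*B2M* had ratios of −1.18, −1.31, −1.90 and −1.78 on arrays 1 to 4. Even the highest of them lay below the mean of every other gene of the set. The mean was −1.54 ± 0.35, which is 34.3% of the control level or 2.91-fold lower (adjusted P = 0.00171), and 45 of the 15615 genes tested had a lower mean. The 4 probes cover 2 places of the transcript, and their means of −1.54 to −1.35 were all past the threshold (adjusted P 0.00131 to 0.00186). With median centring and no loess the mean of *B2M* was −0.88, against 0.13 for all genes, and the call held (adjusted P = 0.00261, in a range of 0.000554 to 0.0606 over all alternatives).

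The processed signals of both channels show the same genes before a ratio is taken. For *B2M* they were 46539, 47167, 67230 and 56446 in control cells and 20530, 18991, 18058 and 16403 in HMB-treated cells. The groups were far apart, and the control signals varied more than the HMB signals. For *PSMB8*, a dim probe, control signals were 112, 79.5, 164 and 99.1 and HMB signals 76.1, 58.3, 70.2 and 34.6. The lowest control value was here just above the highest HMB value. In 6 of the 9 genes all HMB signals lay below all control signals, among them *TAP2*, beside 9.75% of all genes tested. For *ERAP1* the gap was narrow, from 111 in HMB-treated to 114 in control cells.

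**Figure D3:**
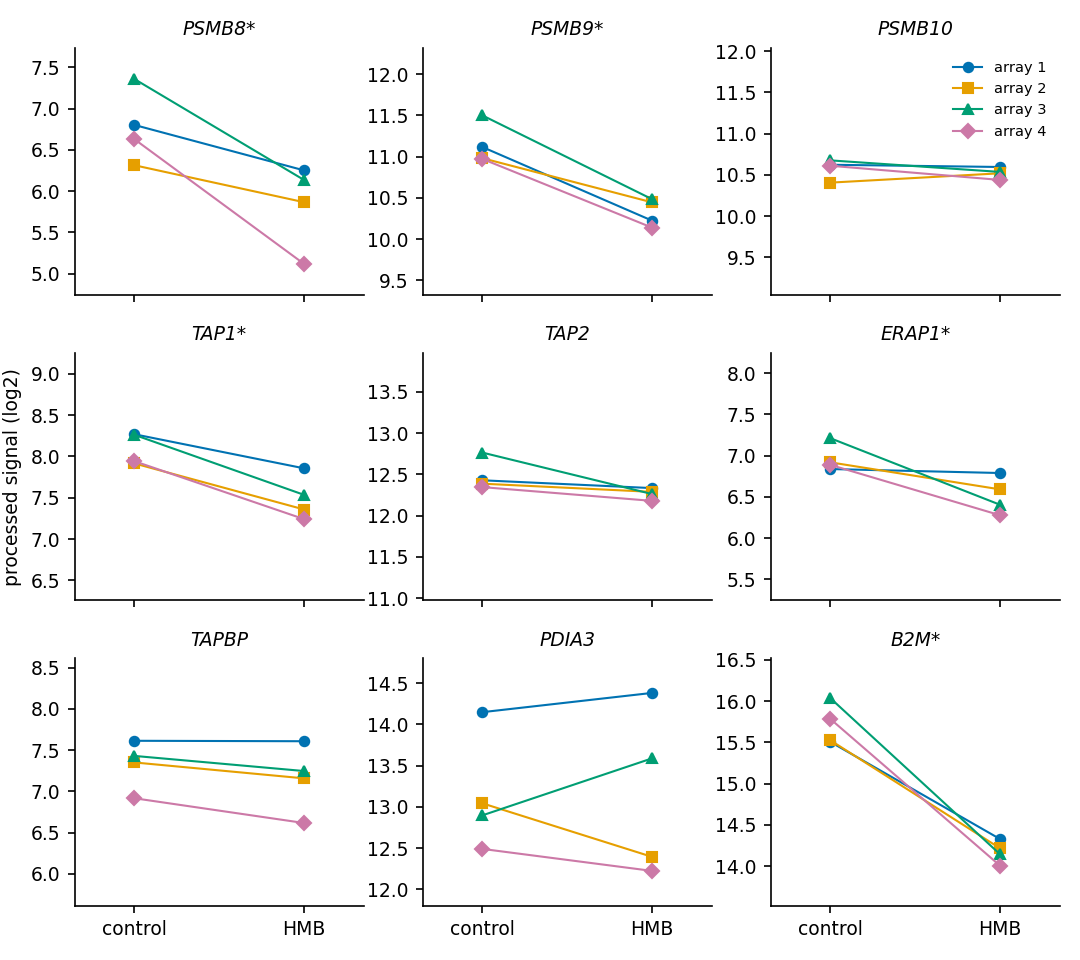
Processed signal on the log2 scale in control (left) and HMB-treated (right) cells, joined within an array. Each panel spans 3 log2 units; levels of different probes are not comparable. An asterisk marks an adjusted P of at most 0.05.

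In the panels of signals, array 3 has the highest control signal for *B2M*, *PSMB8*, *PSMB9*, *PSMB10*, *TAP2* and *ERAP1*. Its HMB signal lies within those of the other arrays for each of these but *PSMB9*, where it is the highest. *PDIA3* differs more between arrays than between the groups.

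*NLRC5* is the transactivator that drives class I genes. The rule found no probe for it, but 2 probes under an unnamed transcript, ENSECAT00000015396, are described in the files as an NLR family member with CARD domain, number 5; they were looked at after values had been seen and are in no count. The first (chr3:9321176-9321587) had ratios of −0.78, −0.65, −1.03 and −1.01, a mean of −0.87 ± 0.19 (adjusted P = 0.00253). The second (chr3:9266948-9267007) had 0.06, −0.03, −0.03 and −0.09, a mean of −0.02 ± 0.06 (adjusted P = 0.811). The probes of a single transcript thus disagreed, and no value is given for *NLRC5*.

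The genes *TAP2*, *PSMB8*, *TAP1*, *PSMB9* and *TAPBP* lie on chromosome 20 within 324 kb, in the class II region of the MHC and at its edge. The probes of *PSMB8*, *TAP1* and *PSMB9* follow that of *TAP2* by 13.8, 18.2 and 29.3 kb. Between the outermost of these probes 17 other genes or transcripts were tested, of which 3 were past the threshold (2 lower, 1 higher), which is 17.6%, beside 22.4% of all genes, with a median of 0.06. The lower pair are an unnamed transcript and a gene of an uncharacterized protein, 90.9 and 91.0 kb from the *TAP2* probe, with means of −1.04 and −1.21. Their probes are neighbours on the same strand and may read a single transcript. The higher was the ribosomal protein gene *RPS18* at 0.39; these were named after their values were seen. *TAPBP* at the far end lay beside genes with means around 0, but *RPS18* was also at that end, 300.8 kb from the *TAP2* probe.

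**Figure D4:**
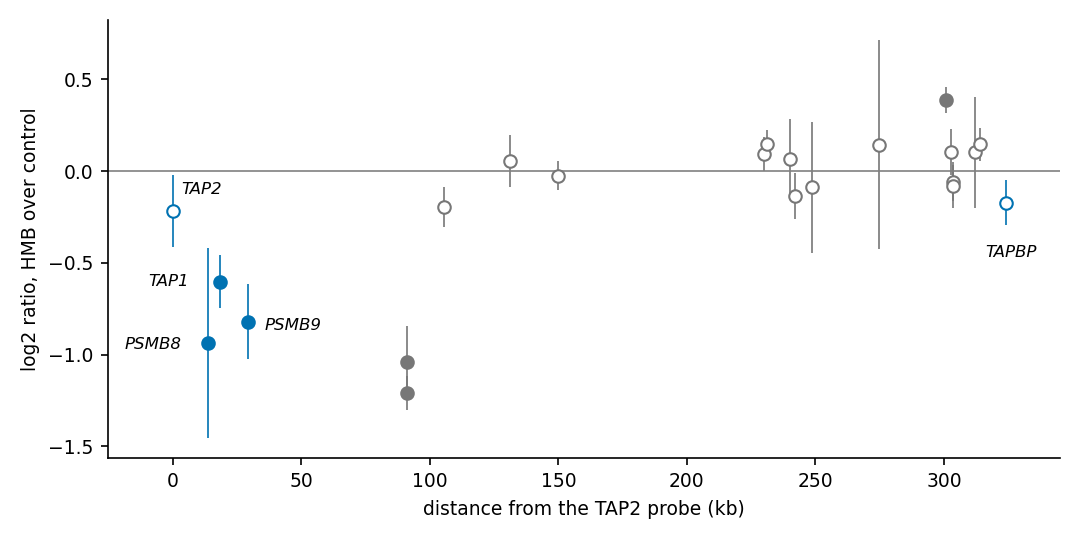
Mean log2 ratio (± SD) of genes between the *TAP2* and *TAPBP* probes by distance. Blue, genes of the set; grey, other genes; filled, adjusted P of at most 0.05.

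Along this stretch the filled symbols of the set stand at the left, where *PSMB8*, *TAP1* and *PSMB9* lie beside *TAP2*. Of the lower genes, *B2M* is on chromosome 1 and *ERAP1* on chromosome 14, and *PSMB10*, which was not past the threshold, is on chromosome 3.

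Of 50 other genes of the class I route, 33 were tested and 10 were past the threshold (9 lower, 1 higher), with a median of −0.07. This is 30.3% of those tested, beside the 22.4% of all genes. All 4 tested class I heavy chains were lower: *EQMHCB2* (−1.16 ± 0.37), *EQMHCC1* (−1.18 ± 0.32), *MHCB3* (−1.14 ± 0.35) and *MHCX1* (−0.68 ± 0.22), the partners of β2-microglobulin. Of the other 29, 5 were lower and 1 was higher, which is 20.7%, a share near that of all genes, with a median of −0.02; whether roles differed was not tested. Lower were the proteasome activators *PSME2* (−0.47 ± 0.21) and *PSME4* (−0.34 ± 0.12), the aminopeptidases *ERAP2* (−0.36 ± 0.23) and *NPEPPS* (−0.39 ± 0.12), and the class I and II promoter factor *RFX5* (−0.28 ± 0.13). Higher was the translocon gene *SEC61A1* (0.23 ± 0.07), whose call was lost without any one array and with separate channels. *ERAP2* also lost its call without any single array, with separate channels, with no filter on dim probes and with the mean of probes. *RFX5* lost its call without array 1, 2 or 3, with the intensity trend, with separate channels and with no filter. *PSME4* and *MHCX1* lost theirs with separate channels, *PSME4* also without array 2, and *PSME2* and *PSME4* with no filter. With median centring and no loess the split was 4 lower (the heavy chains) and 7 higher, *SEC61A1* among them. The median of the 33 was 0.11 there and that of the 29 without the heavy chains 0.14, beside 0.13 of all genes. The other 5 lower genes were there not past the threshold and nearer to 0, *PSME2*, *PSME4* and *NPEPPS* at −0.06 each, *RFX5* at −0.16 and *ERAP2* at −0.21; with normexp and loess *RFX5* was −0.13 and also lost its call. Without array 3 the heavy chains alone kept theirs. By the test of each probe alone 0 of the 33 were past the threshold, beside 411 of all 15615 genes.

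The brightest genes of the route that were not past the threshold were *SEC61G* (0.06 ± 0.13), *POMP* (0.20 ± 0.18), which assembles proteasomes, and the chaperones *CANX* (−0.17 ± 0.11) and *CALR* (−0.10 ± 0.30). This too depended on the processing: with normexp, median centring and no loess *SEC61G* (0.68), *POMP* (0.68) and *CALR* (0.31) were higher and past it and *CANX* was 0.28, and with normexp and loess *CANX* was lower and past it (−0.22). Which step of these settings moved a value was not tested. The heavy chains *MR1*, *CD1D* and *HFE* had probes that did not pass the filter. In all, 24 probes are described in the files as MHC class I, a group looked at after values had been seen. Of these, 23 were tested and all 23 were past the threshold and lower, from −1.22 to −0.60 with a median of −0.93. Of all 27384 probes tested, 3186 were past it and lower. Probes for near-identical class I genes and alleles can take up each other's RNA, so these are not independent measurements.

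**Figure D5:**
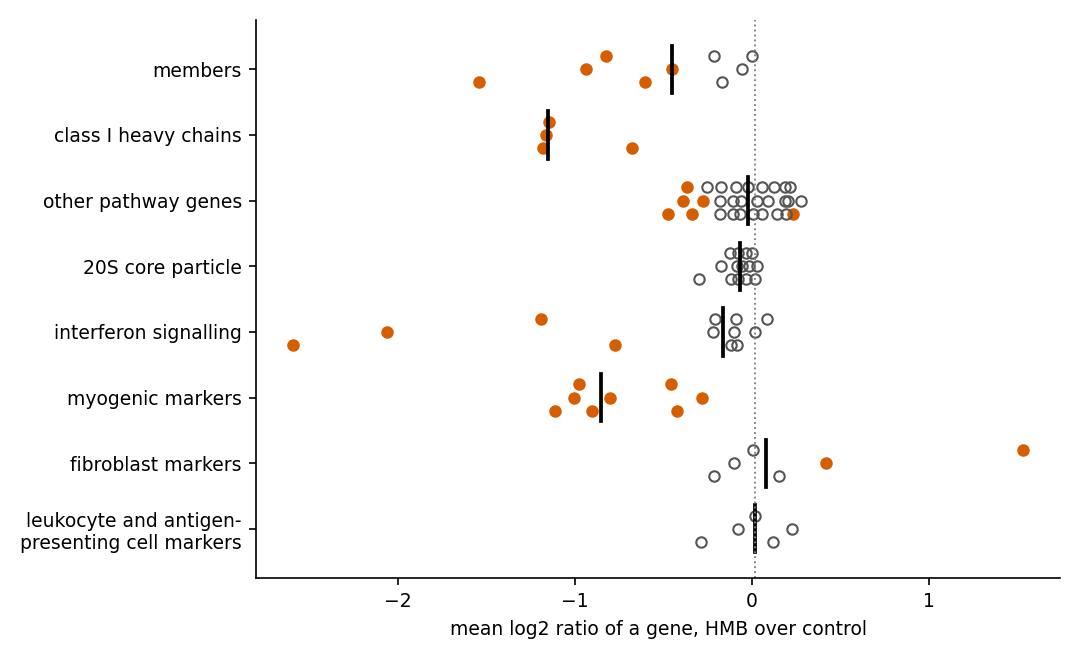
Mean log2 ratio of each tested gene by list, with the median of a list (bar). Filled, adjusted P of at most 0.05; dotted line, median of all genes tested.

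In the plot of lists the heavy chains and the myogenic markers lie wholly below 0, and the other genes of the route and the core particle lie around it. The interferon list, of receptors, kinases, factors, feedback genes and interferons, held 4 lower and 0 higher of 12 tested, with a median of −0.16. This is 33.3% of those tested, beside 22.4% of all genes past the threshold and 11.6% past it and lower. Among the lower were the factors *IRF7* (−2.06 ± 0.69) and *IRF9* (−1.19 ± 0.52) and the feedback protease *USP18* (−2.59 ± 1.00). By limma *IRF9* and *USP18* lost their calls with separate channels (adjusted P = 0.0943 and 0.0515) and with no filter on dim probes (0.0720 and 0.0603). *IRF7* kept its call in both settings. The receptor subunits *IFNAR2* (−0.22 ± 0.20) and *IL10RB* (−0.21 ± 0.24) and the kinases *JAK1* (0.09 ± 0.15) and *JAK2* (−0.09 ± 0.12) were not past the threshold, though *IFNAR2* was without array 4 (−0.31). Probes for *IFNB1* and *IFNG* did not pass the filter. On the class II side, the invariant chain *CD74* was lower at −2.91 ± 0.49 (adjusted P = 0.000717), with the HMB signal above background on 1 array alone, and the transactivator *CIITA* stood at 0.32 ± 0.22 (adjusted P = 0.0558). With normexp background correction the mean of *CD74* was −1.36 with loess and −1.37 with median centring; it kept its call there, but its size depended on the processing. That of *CIITA* was 0.09 and 0.03 in these settings, so its size depended on the processing as well.

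The genes whose ratios were nearest to those of a lower gene, by root mean square difference over the 4 arrays among 9708 genes with a symbol, were as follows. Nearest to *B2M* were *CXCL10* (0.169), *SPP1* (0.190) and *LGALS3BP* (0.223). Nearest to *TAP1* were *RBM24* (0.0406) and *CAMK2A* (0.0562). Those of *B2M* encode secreted proteins, and *RBM24* is known from muscle. *PSMB8* had *CCDC89* (0.110), *PIP5K1B* (0.170) and *ZFHX2* (0.175), and *PSMB9* had *PLCG2* (0.0824), *SLITRK5* (0.102) and *C8H22ORF31* (0.116). For *ERAP1* they were *TTL* (0.0659), *ZBTB7C* (0.0851) and *CASS4* (0.0851), of which only *TTL* was past the threshold. The HMB signal of *CCDC89* was above background on 1 array, and those of *ZFHX2* and *SLITRK5* on 0, so their ratios and distances rest on a channel at background.

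Markers of cell types were read beside these genes. Of 11 myogenic markers 8 were tested, all with signals above background in control cells on all 4 arrays, while *PAX7*, *CDH15* and *MYMK* had no probe of that name. All 8 were past the threshold and lower with HMB, beside 11.6% of all genes: *MYH3* (−1.11 ± 0.47), *MYF5* (−1.01 ± 0.18), *DES* (−0.98 ± 0.37), *NCAM1* (−0.90 ± 0.28), *CKM* (−0.80 ± 0.53), *MYOD1* (−0.46 ± 0.24), *MYOG* (−0.42 ± 0.20) and *MYF6* (−0.28 ± 0.16). These calls depended on the setting. By a one-sample test of each probe alone 0 of the 8 were past the threshold, beside 411 of all 15615 genes. An unadjusted P under 0.05 by that test was found for 7 of the 8, beside 29.9% of all genes. With no filter on dim probes only *MYF5* and *NCAM1* were past the threshold. With median centring and no loess *MYH3* was −0.21, *MYOG* −0.20 and *MYF6* −0.22, none of them past it. The call for *MYF6* was lost without any one array and with the intensity trend, those for *MYOD1*, *MYOG* and *CKM* without array 2, 3 or 4, and those for *MYOD1*, *MYOG* and *MYF6* with separate channels. The summed signal of the 8, mostly that of *MYH3*, was 123871, 121567, 134986 and 145006 in control and 88980.3, 62747, 54959 and 52813 in HMB-treated cells. The markers of the cultured cells themselves thus fell along with *B2M*, *PSMB8*, *PSMB9*, *TAP1* and *ERAP1*, and their part in the lower values of these genes was not tested.

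Of 18 leukocyte and antigen-presenting cell markers, 5 were tested and 0 were past the threshold by limma (2 at an unadjusted P under 0.05) or by a one-sample test of each probe alone, among them *CD14* (0.02 ± 0.15), the probe of highest signal, *CD68* (−0.29 ± 0.30), *MS4A1* (−0.08 ± 0.04) and *CD3D* (0.12 ± 0.10). Over all genes 22.4% were past the threshold by limma, and 411 of 15615 by the test of each probe alone. The count of 0 depended on the processing: with median centring and no loess *CD14* was higher at 0.30 and past the threshold. The defining *PTPRC* had no probe of that name, and *CSF1R*, *ITGAM*, *SPI1* and *CD4* did not pass the filter. Summed signals were 7104, 6397, 6323 and 7102 in control and 8020.3, 6720, 6572 and 6691 in HMB-treated cells. The sum was higher in HMB-treated cells on arrays 1 to 3 and lower on array 4, and most of it was that of *CD14*; the part of these cells in the ratios of the lower genes was not tested. None of the 7 endothelial markers passed the filter, *PECAM1*, *CDH5* and *VWF* included.

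Of 8 fibroblast markers, 6 were tested and 2 were higher, *PDGFRA* (1.53 ± 0.47) and *FAP* (0.42 ± 0.18). This is 33.3% of those tested, beside 22.4% of all genes past the threshold. Not past the threshold were *COL3A1* (−0.21 ± 0.43), the probe of highest signal, *DCN* (0.15 ± 0.22), *LUM* (0.01 ± 0.06) and *THY1* (−0.10 ± 0.19), and the probes of *COL3A1* and of *LUM* had means of opposite sign. The count depended on the processing, in which background correction and scaling were changed together: *DCN* was 0.36 and past the threshold with normexp and loess, and with median centring and no loess *DCN* (1.08), *LUM* (0.46) and *COL3A1* (0.91) were past it, all higher. The median of the 6 was 0.82 there, beside 0.13 of all genes. *PDGFRA* was 0.89 and 0.93 in these settings. By the test of each probe alone neither *PDGFRA* nor *FAP* was past the threshold, and the call for *FAP* was also lost without array 1, 2 or 3 and with no filter on dim probes. Summed signals were 182083, 177019, 191762 and 242890 in control and 232096, 173721, 179970 and 180960 in HMB-treated cells. Muscle precursors also make several of these mRNA, and the part of fibroblasts in the ratios of *B2M* and the other lower genes was not tested.

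By a one-sample test of each probe alone, 0 of the 9 genes were past the threshold after adjustment, beside 411 of all 15615 genes. By that test 4 of the 9 had an unadjusted P under 0.05, beside 29.9% of all genes. With limma, which pools the spread over probes, 7 had an unadjusted P under 0.05, beside 37.9% of all genes. The data hold mRNA alone, so neither class I molecules at the surface nor proteasome activity were measured.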

How the data were processed

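RNA of HMB-treated (Cy5) and control (Cy3) cells was compared on 4 arrays of 60-base probes. The authors made the spot intensities with Feature Extraction, version 10.10.1.1 in the deposited files and another in the methods. The authors subtracted background from these, normalised them by linear and lowess fits and deposited log10 ratios (Cy5 over Cy3); the value table of the series holds the same log10 values (largest difference 0, median 0 in each column). The deposited marks used, 0 or 1, are those by which Feature Extraction tells spots above background, non-uniform spots and outlying spots. Ratios were multiplied by 3.32 to log2. The 1417 control spots per array were left out, as were 11, 17, 32 and 15 marked spots on arrays 1 to 4; 43803 spots of 43603 probes remained before the marks. Tests were made for probes with at least 3 values and with a channel, the same on all 4 arrays, well above background. A gene is represented by its tested probe of highest mean signal. Median signal over background was 3.16 to 3.82 in Cy3 and 4.68 to 5.85 in Cy5, and the SD of the ratios of an array 0.34 to 0.48.

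The files gave a symbol for 24962 probes, and the accession led to a symbol in the RefSeq gene table (assembly TB-T2T, used for names alone) for 1945 more; 16696 had none. Coordinates are those of the files (EquCab1). The test was the moderated t-test of limma 3.58.1 under R 4.3.3, with an intercept and an empirical Bayes spread, and P was adjusted by Benjamini and Hochberg over every tested probe. Files were handled with Python 3.11.15, numpy 2.4.6, pandas 2.3.3 and scipy 1.17.1, and figures with matplotlib 3.10.9; the fit was tested on simulated data. The genes and lists were chosen with earlier results of these data known. Named are all genes of the set, the replaced subunits, *CIITA* and *CD74*, each other list's genes past the threshold with up to 4 of the brightest not past it, all tested markers, and the 3 genes nearest to each lower gene. The values of 3 of these genes are not reported here. Alternatives were normexp background correction (offset 50) with loess or with median centring, a one-sample t-test of each probe alone (the supplementary workbook names the kind of test, the methods section only GeneSpring defaults and the adjustment), a robust prior with an intensity trend, channels as separate samples, dim probes kept, a signal above background required in both channels, marked spots used, the value table, the mean of a gene's probes, and each array left out, with at least 2 values.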

Additional observations from a re-analysis of the deposited data

Results flagged for a closer look

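Of 88 series of 4 values, 2 held an array far from the other 3; chance flags about 1 in 20 groups. *IRF7* was at −3.09 on array 3, and between −1.82 and −1.57 on the others. *IRF9* was at −1.96 on array 3, and between −1.03 and −0.86 on the others. Both genes were lower with HMB on all 4 arrays.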

How the results depend on the processing

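*B2M*, *TAP1* and *PSMB9* kept their direction and their call in 13 of 14 alternatives, all but a one-sample test of each probe alone, with means of −1.66 to −0.88, −0.66 to −0.40 and −0.92 to −0.58. *PSMB8* kept its direction in 14 and its call in 10, *ERAP1* in 14 and 6, with means of −1.10 to −0.60 and −0.58 to −0.26. The 9 genes of the set had 5 calls; by the test of each probe alone there were 0, with separate channels and no replicate block 3, with no filter on dim probes 3, and without an array 3 to 5. The cause was not tested, except that this test does not pool the spread and that no filter adds dim probes. The count of 10 other route genes became 0, 5 and 8 (6 of the 10 among these) under these, and 4 to 8 without an array; that of 4 interferon genes 0, 2 and 1, and 3 to 4 without an array (without array 4, 3 of the 4 and *IFNAR2*). The 0 core particle genes became 1 with normexp and loess, with the intensity trend and with no filter (*PSMB6*, lower in each). With median centring and no loess 1 was past the threshold (*PSMB2*, higher), and 0 to 1 without an array (*PSMA4*, lower, without array 2). Of all probes, 6257 (3186 lower, 3071 higher) became 768, 2226 and 3690, and 2573 to 4957 without an array; with median centring and no loess 1585 were lower and 5703 higher.

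Reversed values, none of them past the threshold unless stated, were these, and the cause was not tested. With median centring and no loess, which put the median of all genes at 0.13: *TAP2* 0.0852, *PSMB10* 0.14, *PSMB6* 0.34, *PSMB7* 0.31, *CANX* 0.28, *CALR* 0.31 (past), *IL10RB* 0.0733, *JAK2* 0.0199, *PSMA7* 0.44, *PSMB2* 0.48 (past), *PSMA6* 0.34, *MS4A1* 0.0534, *COL3A1* 0.91 (past) and *THY1* 0.0749. With normexp and loess: *PDIA3* −0.0288, *CD14* −0.0294, *COL3A1* 0.0981, *LUM* −0.0398, and *PSMB10* less *PSMB7* 0.0185. With the mean of a gene's probes: *LUM* −0.11. Leaving out an array gave both signs for *PDIA3* (−0.23 to 0.22; below 0 without array 1 or 3), *PSMB5* (−0.000162 to 0.0602; below without array 1), *CD14* (−0.0402 to 0.0842; below without array 1), *LUM* (−0.0162 to 0.0309; below without array 2 or 3), *SEC61G* (−0.00249 to 0.10; below without array 4) and *PSMB10* less *PSMB7* (−0.0463 to 0.0455; above without array 3 or 4). Signal over background of 3.16 to 5.85 limits dim probes such as those of *PSMB8* and *ERAP1*.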
